A study of Rattus norvegicus with 18 samples.

Results

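The cytosolic heat shock chaperones described here are 7 genes of the kidney count table, chosen by their mouse Ensembl identifiers: Hspa1a (ENSMUSG00000091971), Hspa1b (ENSMUSG00000090877), Hspa8 (ENSMUSG00000015656), Hsp90aa1 (ENSMUSG00000021270), Dnajb1 (ENSMUSG00000005483), Hspb1 (ENSMUSG00000004951) and Hsph1 (ENSMUSG00000029657). The table holds 55335 identifiers and no gene names, so the names are those given with this selection. All 7 were among the 19233 genes that passed the filter on low counts. Polyadenylated kidney RNA was sequenced from 18 animals labelled Rattus norvegicus, 6 in each of 3 groups. Treat animals carried the diabetic nephropathy model and received TSK by mouth at 500 mg/kg per day for 4 weeks. DN animals carried that model untreated; it combines high-fat feeding with STZ, a toxin of insulin-producing cells. Ctrl animals ate ordinary feed and were gavaged with solvent. The labels give neither strain, sex nor age, mention solvent for Ctrl animals alone, and name no group with the diet alone, STZ alone or TSK without the model. The identifiers and the stated builds are mouse, while the labelled species is rat, and this mismatch was not resolved here.

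Heat shock proteins are chaperones that bind unfolded proteins and help them to fold, to be held in solution or to be degraded. In the cytosol, HSP70 proteins work in cycles of ATP hydrolysis that J-domain proteins start and nucleotide exchange factors close, and HSP90 takes over many client proteins such as kinases and steroid receptors. After heat, ischaemia or toxic injury the transcription factor HSF1 binds heat shock elements in their promoters. In the kidney, inducible HSP70 is known for its rise in tubules after ischaemia and for its high level in the hyperosmotic medulla.

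A heat shock element is built from repeats of a GAA unit in alternating orientation, so neighbouring units read GAANNTTC or TTCNNGAA. Both motifs equal their own reverse complement, and in an array of 3 units they overlap. Rat promoters were available from RefSeq (build GRCr8) for 5 of the 7 genes by symbol. Hspa1b and Hsp90aa1 had no entry. The 250 bases before the annotated start held at least 1 of these motifs in Hspa8, Dnajb1, Hspb1 and Hsph1, against 13.5% of 33469 rat promoters. An array of 3 units was found in Hspa8 and Hsph1, against 0.663% of the promoters. The following 3 promoters are shown because Dnajb1 varied with both Hspa8 and Hsph1 within groups, as described further on, with the motif letters in capitals and everything else in lower case, 5′ to 3′ on the strand of the gene.
Hspa8 (chr8:50080264-50080513, plus strand): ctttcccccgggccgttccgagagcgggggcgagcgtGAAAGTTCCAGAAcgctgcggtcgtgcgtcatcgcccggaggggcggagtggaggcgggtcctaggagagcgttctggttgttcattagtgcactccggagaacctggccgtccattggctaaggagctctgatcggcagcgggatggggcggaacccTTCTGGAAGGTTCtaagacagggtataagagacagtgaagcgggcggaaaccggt
Dnajb1 (chr19:41431142-41431391, minus strand): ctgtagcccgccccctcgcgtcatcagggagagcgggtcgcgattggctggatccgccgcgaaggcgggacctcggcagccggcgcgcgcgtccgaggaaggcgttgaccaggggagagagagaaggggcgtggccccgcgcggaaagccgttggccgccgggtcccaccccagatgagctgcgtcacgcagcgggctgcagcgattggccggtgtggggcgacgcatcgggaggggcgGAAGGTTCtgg
Hsph1 (chr12:10427118-10427367, plus strand): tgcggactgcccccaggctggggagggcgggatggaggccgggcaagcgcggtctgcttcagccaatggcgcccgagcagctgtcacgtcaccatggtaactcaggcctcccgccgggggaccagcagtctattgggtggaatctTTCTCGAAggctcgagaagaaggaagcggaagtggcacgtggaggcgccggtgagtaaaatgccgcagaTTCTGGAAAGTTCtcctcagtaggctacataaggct
In Hspa8 the arrays began 213 and 55 bases before the start, in Hsph1 the array began 36 bases before it, with a further TTCNNGAA at 105 bases, and in Dnajb1 the GAANNTTC began 11 bases before it. Hspb1 held GAANNTTC at 129 and 109 bases. Its Pearson r within groups over 18 libraries was -0.54 with Hspa8, -0.18 with Dnajb1 and 0.40 with Hsph1. For Hspa1a these values were -0.49, 0.20 and 0.66. Spearman rho with Hsph1 over 18 libraries was 0.015 for Hspb1 and 0.25 for Hspa1a. Without Ctrl library 4 and Treat library 1, Pearson r with Hsph1 was -0.23 for Hspb1 and 0.55 for Hspa1a. Whether the motifs go with shared variation was not tested. The Hspa1a window held neither motif, which says only that these letters are not in this window. A match describes letters and not a bound site, and these windows are from rat whereas the reads were counted on mouse builds.

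Library totals ranged from 22040987 to 35275498 counts. At these depths the lowest member count was 148, for Hspb1 in Treat library 2. Treat library 1 and Ctrl library 4 stood apart from the others on the second principal component (scores -78.8 and -54.2, against -25.2 to 26.8). Ctrl library 4 also differed from its group in identifier ENSMUSG00000086503, which had at least 38313 counts in the other 5 controls and at most 41 in Ctrl library 4 and in all 12 DN and Treat libraries. For those 5 controls this division and the group cannot be told apart. The labels give no sex, and whether the division follows the sex of the animals was not tested. The fold changes that moved most without these libraries are given with and without them. Kidney marker genes could not be looked up by name, so the tissue label was not checked. Levels are CPM, counts scaled to library totals of equal size after TMM correction, and since they are not corrected for gene length they are compared between groups only. In bulk kidney, fewer cells of a type and less RNA per cell cannot be told apart.

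The inducible HSP70 genes Hspa1a and Hspa1b, which encode nearly identical proteins that are made mainly under stress, had their lowest levels in model animals. Hspa1a lay between 11.7 and 26.7 CPM in Treat (median 12.8), between 10.9 and 34.9 CPM in DN (median 15.1) and between 17.3 and 64.2 CPM in Ctrl (median 24.5). The highest values came from Treat library 1, DN library 6 and Ctrl library 4, and the groups overlapped. Hspa1b lay between 12.3 and 42.7 CPM in Treat (median 17.4), between 13.0 and 52.9 CPM in DN (median 22.5) and between 29.0 and 121 CPM in Ctrl (median 36.7). The same 3 libraries were highest in their groups. For Hspa1b, 5 of 6 Treat libraries and 4 of 6 DN libraries lay below every control library, with Treat library 1, DN library 2 and DN library 6 inside the control range. Reads of these copies can be split between them by the counting, so their sum is also given. It lay between 24.0 and 69.4 CPM in Treat (median 29.8), between 25.4 and 87.8 CPM in DN (median 37.3) and between 46.6 and 185 CPM in Ctrl (median 61.1).

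Hspa8, the constitutive HSP70 that also strips clathrin from vesicles, was the member with the largest counts, and its median was highest in DN. It lay between 866 and 1409.9 CPM in Treat (median 1137), between 1074 and 1656 CPM in DN (median 1469) and between 996 and 1419 CPM in Ctrl (median 1105). On this scale every Treat library lay below the DN median and 5 of 6 DN libraries lay above the Ctrl median, but all 3 groups overlapped. Processed pseudogenes of Hspa8 are known, and its counts are uncertain where reads could be assigned to them.

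Among the cofactors of HSP70, Hsph1 encodes the HSP110 protein that exchanges nucleotide on HSP70. Its level was between 84.4 and 105 CPM in Treat (median 90.6), between 86.8 and 176 CPM in DN (median 104) and between 112 and 256 CPM in Ctrl (median 126). On this scale all 6 Treat libraries lay below all 6 Ctrl libraries, and DN reached into the Ctrl range with its library 6 alone. Dnajb1 encodes the J-domain protein HSP40 that starts the HSP70 cycle. Its level was between 24.3 and 29.9 CPM in Treat (median 29.1), between 25.5 and 43.7 CPM in DN (median 30.8) and between 26.0 and 35.9 CPM in Ctrl (median 28.5). Its 3 groups overlapped almost entirely, with DN library 6 above all others.

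Hsp90aa1, the stress-responsive HSP90 of the cytosol, had its lowest median in Treat and its highest in Ctrl. It lay between 244 and 365 CPM in Treat (median 310.3), between 289.6 and 445 CPM in DN (median 354) and between 367 and 468 CPM in Ctrl (median 432). On this scale the highest Treat library was just under the lowest Ctrl library, and DN overlapped both groups. Hspb1 encodes the small heat shock protein HSP27 (HSP25 in rodents), which holds unfolded proteins and stabilises actin. It lay between 6.52 and 18.3 CPM in Treat (median 10.6), between 8.27 and 10.9 CPM in DN (median 9.22) and between 6.06 and 19.6 CPM in Ctrl (median 7.15). Treat library 1 and Ctrl library 4 were high, and the other 5 controls ranged from 6.06 to 8.62 CPM, below 4 of the 6 DN libraries.

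**Figure D1:**
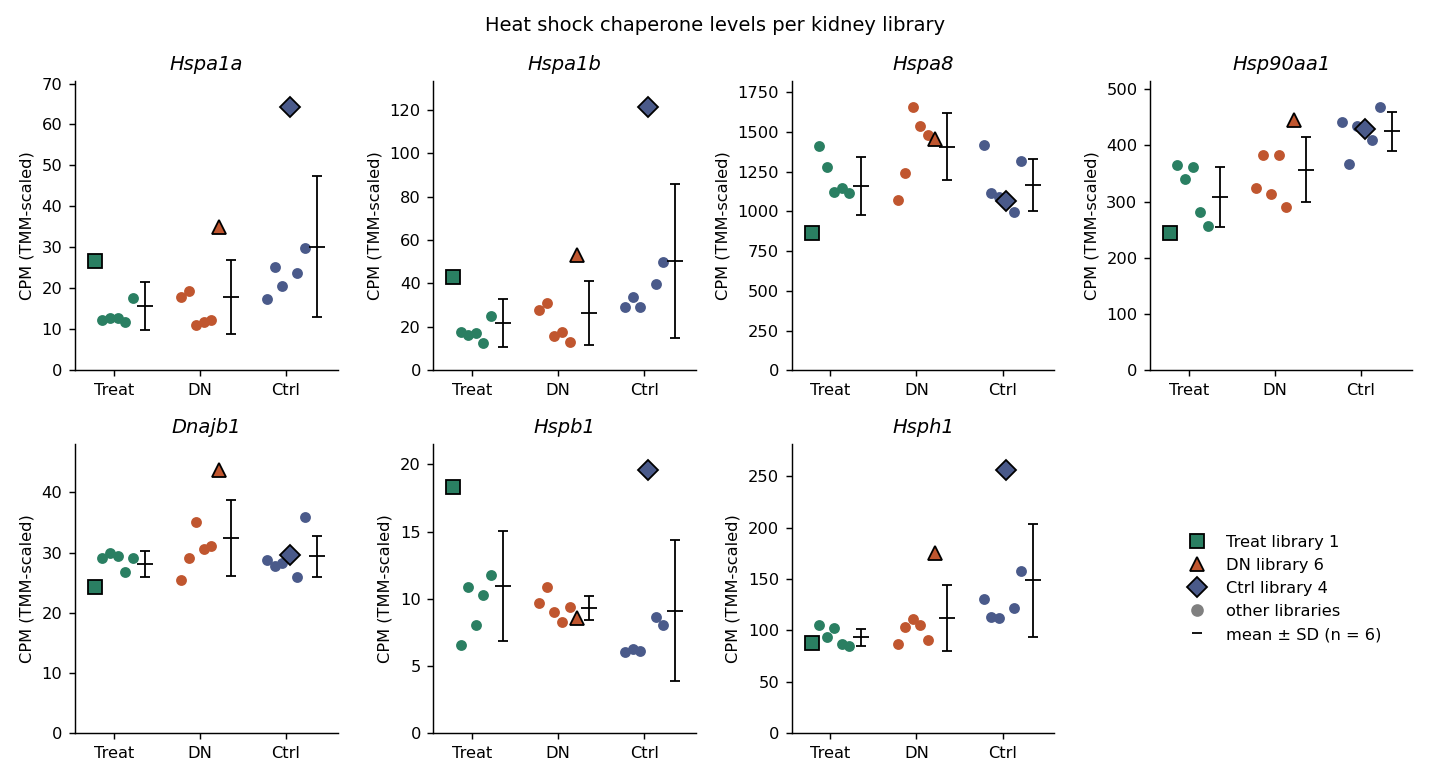
Level of each heat shock chaperone in CPM (vertical axes, starting at 0) in the Treat, DN and Ctrl libraries, 1 point per animal, with the mean and SD of 6 libraries beside the points. Ctrl library 4 is highest of its group for Hspa1a, Hspa1b, Hspb1 and Hsph1. On this TMM scale all Treat libraries lie below all Ctrl libraries for Hsph1 and Hsp90aa1. Without scaling factors Treat library 2 overlaps Ctrl for Hsph1, and Treat libraries 2, 3 and 4 do so for Hsp90aa1.

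The comparison of DN with Ctrl asks which chaperones differed in the kidney of model animals. By edgeR's quasi-likelihood test with Benjamini-Hochberg adjustment over all genes tested, 0 of the 7 chaperones were called at an adjusted p under 0.05, against 32.2% of all genes tested. The libraries of all 7 overlapped between DN and Ctrl, against 16.2% of all genes whose libraries did not. DESeq2 and limma voom also called 0, while 5 of the 7 had an unadjusted p under 0.05. The inducible pair had the lowest fold changes. Hspa1b averaged 26.2 ± 14.8 CPM in DN and 50.4 ± 35.5 CPM in Ctrl (SD, n = 6 each), a log2 fold change of -0.94 (95% interval -1.78 to -0.10, edgeR adjusted p = 0.080). Hspa1a averaged 17.9 ± 9.04 CPM in DN and 30.1 ± 17.2 CPM in Ctrl, a log2 fold change of -0.75 (interval -1.45 to -0.06, edgeR adjusted p = 0.089). Both intervals, which are not adjusted, excluded 0, but neither difference was called after adjustment over all genes tested.

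For the cofactors and HSP90, the log2 fold changes of DN versus Ctrl were smaller. Hsph1 averaged 112 ± 32.4 CPM in DN and 149 ± 55.3 CPM in Ctrl (log2 fold change -0.41, SE 0.19, edgeR adjusted p = 0.114). Hsp90aa1 averaged 357 ± 57.6 CPM in DN and 425 ± 34.3 CPM in Ctrl (log2 fold change -0.25, SE 0.12, edgeR adjusted p = 0.113). These 2 genes and the inducible pair were the 4 members with a negative value. Hspa8 averaged 1408 ± 212 CPM in DN and 1168 ± 164 CPM in Ctrl (log2 fold change 0.27, SE 0.13, edgeR adjusted p = 0.108). Dnajb1 (32.5 ± 6.32 CPM in DN and 29.4 ± 3.44 CPM in Ctrl) and Hspb1 (9.31 ± 0.923 CPM in DN and 9.11 ± 5.24 CPM in Ctrl) had log2 fold changes of 0.15 and 0.03. The median over the 7 was -0.25, beside 0.01 over all genes tested.

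The number called rested on single libraries. Without DN library 6, 4 of the 7 fell in DN (Hspa1a -1.06, Hspa1b -1.27, Hsph1 -0.58 and Hsp90aa1 -0.33 on the log2 scale, edgeR adjusted p from 0.014 to 0.0391), against 16.4% of all genes lower in that fit. Without DN library 1, Hspa8 alone was called (log2 fold change 0.34, edgeR adjusted p = 0.0487), against 15.4% of all genes higher. Leaving out Ctrl library 4 moved the other way, with log2 fold changes of -0.38 for Hspa1a, -0.47 for Hspa1b and -0.18 for Hsph1 (edgeR adjusted p = 0.315, 0.310 and 0.370), and 0 of 7 called against 31.2% of all genes. In that fit the log2 fold change of Hspb1 was 0.40 (edgeR adjusted p = 0.131), and without both Ctrl library 4 and Treat library 1 it was called (0.40, edgeR adjusted p = 0.0482), against 18% of all genes higher. When the division of the controls entered as a covariate, which leaves Ctrl library 4 as the only reference, Hspa1a, Hspa1b and Hsph1 were called lower (-1.85, -2.21 and -1.19), against 2.78% of all genes lower. Ctrl library 4 is the library that was highest for these 3 genes, and their values in this fit rest on it alone.

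Treat was set against DN to see whether chaperones differed with TSK in model animals. None of the 7 passed the test: edgeR called 0, against 1.39% of all genes, and DESeq2 and limma voom also called 0. For all 7 the Treat and DN libraries overlapped, against 1.8% of all genes whose libraries did not. An unadjusted p under 0.05 was found for 1, Hspa8, which averaged 1158 ± 182 CPM in Treat and 1408 ± 212 CPM in DN (log2 fold change -0.28, 95% interval -0.55 to -0.02, edgeR adjusted p = 0.271). Intervals of the other members included 0. They ran from -0.89 to 0.50 for Hspa1a, from -1.11 to 0.58 for Hspa1b, from -0.67 to 0.14 for Hsph1, from -0.46 to 0.04 for Hsp90aa1, from -0.44 to 0.02 for Dnajb1 and from -0.33 to 0.81 for Hspb1. The log2 fold change was negative for 6 of 7 members, with a median of -0.21 beside -0.01 over all genes. Without DN library 6 the log2 fold changes of Hspa1a and Hspa1b were 0.12 and 0.06. Without Treat library 1 they were -0.41 and -0.57, and that of Hspb1 was 0.03 in place of 0.24. In Treat versus DN 0 of 7 were called in each of 29 alternative settings.

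Treat against Ctrl addresses how treated animals compared with healthy ones, and it shares its libraries with the 2 comparisons above. Inducible HSP70, HSP110 and HSP90 were lower: 4 of the 7 chaperones fell and 0 rose, against 21.9% of all genes lower, 23% higher and 44.9% called in all. Hsph1 averaged 93.2 ± 8.51 CPM in Treat and 149 ± 55.3 CPM in Ctrl, and fell by 37.3% (log2 fold change -0.67, SE 0.19, edgeR adjusted p = 0.00888). Hsp90aa1 averaged 308 ± 53.9 CPM in Treat and 425 ± 34.3 CPM in Ctrl, and fell by 27.5% (log2 fold change -0.46, SE 0.12, edgeR adjusted p = 0.00426). With TMM factors all 6 Treat libraries lay below all 6 Ctrl libraries for both genes, which was so for 13.2% of all genes. Without scaling factors both overlapped. For Hsph1, Treat library 2 (108 CPM) exceeded the lowest control (107 CPM). For Hsp90aa1, Treat libraries 2, 3 and 4 (375.7, 360.2 and 360.7 CPM) exceeded the lowest control (355 CPM).

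The inducible pair had lower fold changes with wider spread. Hspa1b averaged 21.8 ± 11.1 CPM in Treat and 50.4 ± 35.5 CPM in Ctrl (log2 fold change -1.21, SE 0.40, edgeR adjusted p = 0.0211). Hspa1a averaged 15.6 ± 5.83 CPM in Treat and 30.1 ± 17.2 CPM in Ctrl (log2 fold change -0.94, SE 0.33, edgeR adjusted p = 0.0274). In each, 5 of 6 Treat libraries were below the Ctrl median. With the counts of both copies summed, the log2 fold change was -1.10 (SE 0.37, edgeR adjusted p = 0.0222). Hspa8 averaged 1158 ± 182 CPM in Treat and 1168 ± 164 CPM in Ctrl (log2 fold change -0.01, 95% interval -0.28 to 0.25). The log2 fold change was -0.07 (interval -0.29 to 0.16) for Dnajb1 and 0.27 (interval -0.30 to 0.84) for Hspb1. None of these 3 passed the test. The median over the 7 was -0.46, beside 0.02 over all genes.

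**Figure D2:**
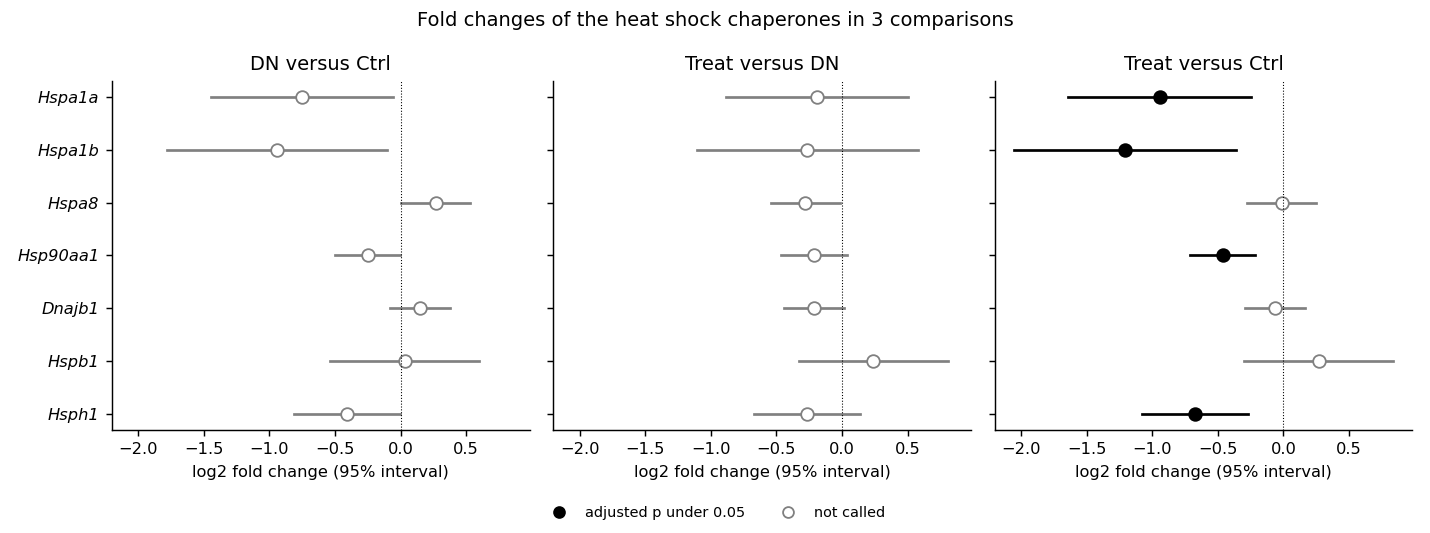
Log2 fold change (horizontal axes) of each chaperone with its 95% interval in the 3 comparisons, from the fit over all 18 libraries. Filled points passed an adjusted p of 0.05, which only Hspa1a, Hspa1b, Hsp90aa1 and Hsph1 did, in Treat versus Ctrl.

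Of the 28 alternative settings that tested each copy alone, Hspa1a was called lower in Treat in 21 and Hspa1b in 27. Hsph1 was called in all 29 alternatives (edgeR, DESeq2 or limma voom adjusted p from 0.00129 to 0.0355), and Hsp90aa1 in 28 of 29, the exception being the division of the controls as a covariate (log2 fold change -0.48, edgeR adjusted p = 0.169). Without Ctrl library 4 the Ctrl means were 23.3 ± 4.73 CPM for Hspa1a, 36.3 ± 8.70 CPM for Hspa1b and 127 ± 18.8 CPM for Hsph1 (SD, n = 5). In that fit the falls of Hspa1a and Hspa1b lost their call (log2 fold change -0.58 and -0.74, edgeR adjusted p = 0.106 and 0.0893), while Hspb1 rose (0.64, edgeR adjusted p = 0.0146), so 2 members fell and 1 rose, against 21.2% of all genes lower and 23.1% higher. Hspa1a also lost its call without Treat library 2, 3, 4 or 5 (edgeR adjusted p from 0.0533 to 0.0580). Without Ctrl library 4 and Treat library 1 together, all 4 falls were called (Hspa1a -0.78, Hspa1b -1.03, Hsph1 -0.42 and Hsp90aa1 -0.39) and Hspb1 rose (0.45, edgeR adjusted p = 0.0275), against 21.9% of all genes lower and 23.2% higher. With the division of the controls as a covariate, Hspa1a, Hspa1b and Hsph1 were lower in Treat (-2.04, -2.47 and -1.46), against 5.78% of all genes lower, again with Ctrl library 4 as the only reference. Whether the difference between Treat and Ctrl comes from the model, TSK or the division of the controls cannot be told apart for the other 5 controls.

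**Figure D3:**
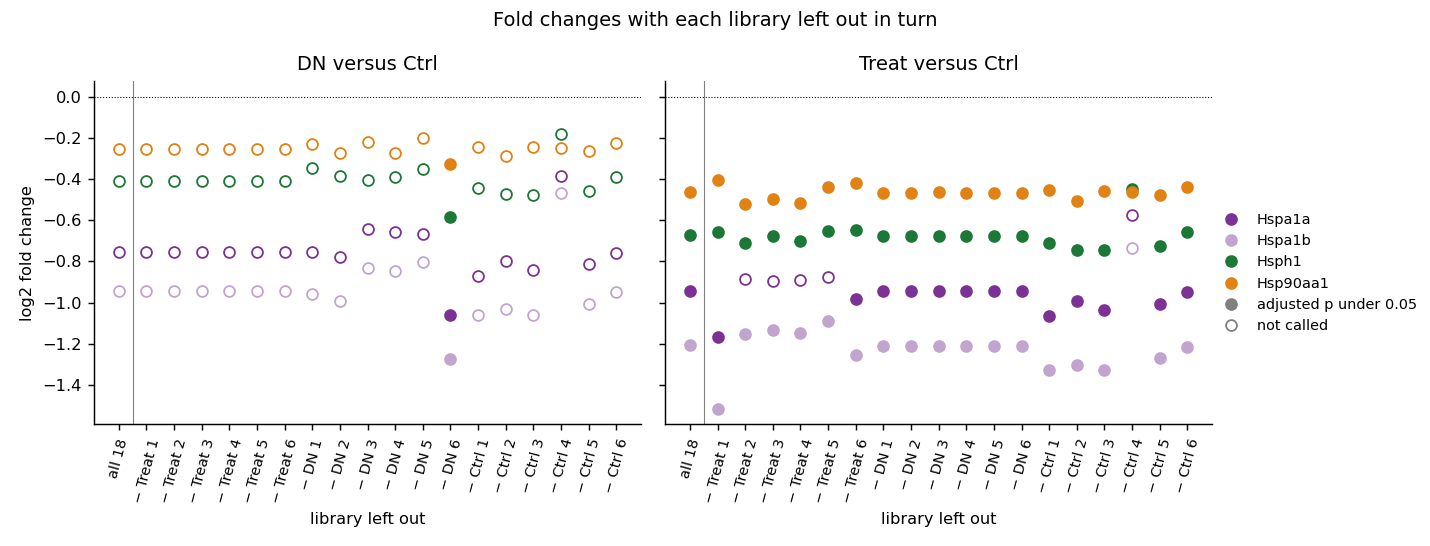
Log2 fold change (vertical axes) of Hspa1a, Hspa1b, Hsph1 and Hsp90aa1 in the fit of all 18 libraries and with each library left out in turn (horizontal axes). Filled points passed an adjusted p of 0.05: in DN versus Ctrl all 4 did so only without DN library 6, and in Treat versus Ctrl the inducible pair lost its call without Ctrl library 4.

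Within groups, some chaperones varied together and others ran against each other. With group means removed, Hspa1a and Hspa1b tracked each other over the 18 libraries (Pearson r = 0.97, Spearman rho = 0.91), and Hspb1 followed Hspa1a (r = 0.72, rho = 0.64). Without Ctrl library 4 and Treat library 1 the value for the inducible pair was 0.94 and that for Hspb1 with Hspa1a was 0.27 over 16 libraries, against a Spearman rho of 0.47 for Hspb1 with Hspa1a over the same 16. Dnajb1, the co-chaperone whose promoter is printed above, correlated with Hspa8 (r = 0.63) and with Hsph1 (r = 0.64), and without those 2 libraries with r = 0.59 and 0.88. Over those 16 libraries its Spearman rho was 0.60 with Hspa8 and 0.73 with Hsph1. Hspa8 and Hsph1 themselves gave r = 0.20 over 18 libraries and 0.46 over 16. Hsph1 and Hsp90aa1 gave r = 0.52 over 18 and 0.75 over 16 libraries. Hspa8 and Hspa1a ran against each other (r = -0.49, rho = -0.59, and r = -0.32 over 16 libraries). So did Hspa8 and Hspb1 (r = -0.54, rho = -0.61, and r = -0.44 over 16 libraries). These are descriptions over libraries that share their scaling and their depth differences.

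Individual animals differed in which chaperones were high. Treat library 1 was above its group median by 1.06 for Hspa1a, 1.30 for Hspa1b and 0.79 for Hspb1. With TMM factors it was the lowest of its group for Hspa8, Hsp90aa1 and Dnajb1. Without scaling factors it was the lowest for Hspa8 alone. There Treat library 6 was lower for Hsp90aa1 (273 against 279 CPM) and Treat library 5 for Dnajb1 (27.7 against 27.8 CPM). DN library 6 was above its group median by 1.23 for Hspa1a, 1.27 for Hspa1b, 0.75 for Hsph1, 0.50 for Dnajb1 and 0.34 for Hsp90aa1, and it was the second lowest of its group for Hspb1. Ctrl library 4 was above its group median by 1.39 for Hspa1a, 1.73 for Hspa1b, 1.46 for Hspb1 and 1.02 for Hsph1 on the log2 scale, while its Hspa8, Hsp90aa1 and Dnajb1 were within 0.06 of the median. Treat library 1 and Ctrl library 4 are those that stood apart on the second component, and the part of that in their chaperone levels was not tested.

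**Figure D4:**
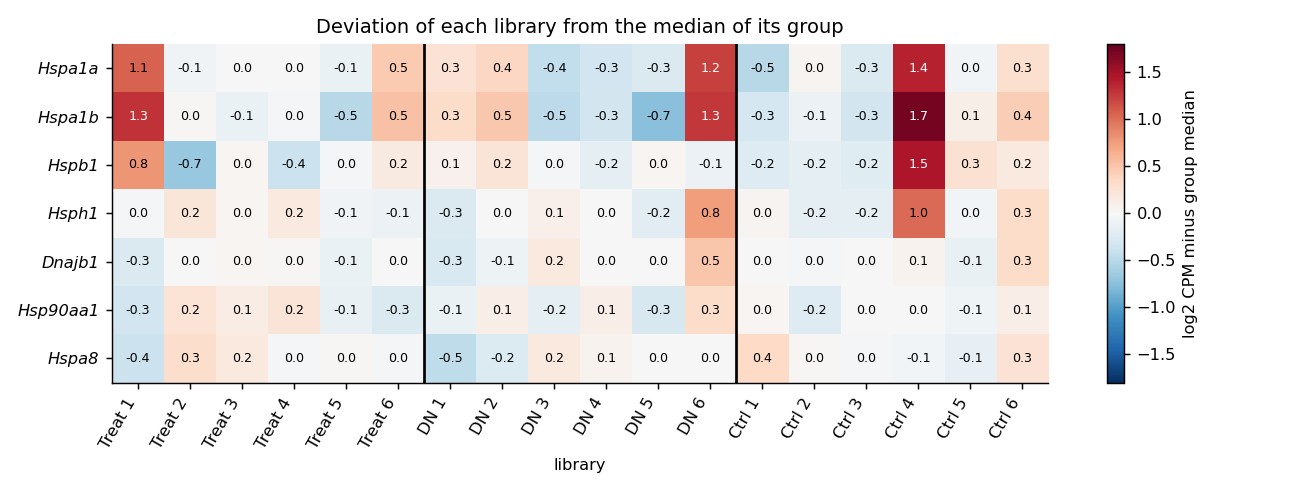
Log2 CPM of each chaperone (rows) in each library (columns) minus the median of its group, red above and blue below. Treat library 1 and Ctrl library 4 are high for Hspa1a, Hspa1b and Hspb1, whereas DN library 6 is high for Hspa1a, Hspa1b, Hsph1, Dnajb1 and Hsp90aa1 but not Hspb1.

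A ratio within a library does not depend on how libraries are scaled. Counts of Hspa1a plus Hspa1b per 100 counts of Hspa8 lay between 2.09 and 8.01 in Treat (median 2.45), between 1.61 and 6.03 in DN (median 2.96) and between 3.28 and 17.4 in Ctrl (median 5.65). The ratio was below every control in 4 of 6 Treat and 3 of 6 DN libraries. Treat libraries 1 and 6 and DN libraries 1, 2 and 6 lay inside the control range, and without Ctrl library 4 the highest control was 6.35, under Treat library 1. Hspa1b made up 51.3% to 61.6% of the counts of the pair in Treat, 51.3% to 61.5% in DN and 57.4% to 65.4% in Ctrl.

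The spread between animals was widest for the inducible pair. The SD of log2 CPM within groups was 0.72 for Hspa1b and 0.59 for Hspa1a, larger than for 88.3% and 82.3% of all genes tested. It was 0.48 for Hspb1 and 0.34 for Hsph1 (larger than for 73.9% and 60.3%). Without Ctrl library 4 and Treat library 1 these SDs were 0.54, 0.44, 0.25 and 0.26. Hspa8, Hsp90aa1 and Dnajb1 had SDs of 0.22, 0.21 and 0.19, under the median of 0.28 over all genes tested. These were larger than for 37.3%, 34.4% and 28.5% of genes. Without those 2 libraries the shares were 37.3%, 38.4% and 35.6%. Genes of all levels enter this ranking, and it was not matched for level.

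Outside the chaperones, the 2 identifiers whose deviations from their group means were most like the average of the 7 standardised members over 18 libraries were ENSMUSG00000027678 (r = 0.85, and 0.83 without Ctrl library 4 and Treat library 1) and ENSMUSG00000034342 (r = 0.82 and 0.79), among 19226 genes. Over the 16 libraries other genes ranked above them, and they stood at ranks 12 and 34. Both were picked for the highest r among all these genes, and the 16 libraries are part of the 18. Their r is therefore a description and no test of a link. ENSMUSG00000027678 fell in DN versus Ctrl (log2 fold change -0.50, edgeR adjusted p = 0.000633) and in Treat versus Ctrl (-0.63, edgeR adjusted p = 4.96e-05), but was not called in Treat versus DN (-0.13, edgeR adjusted p = 0.536). The files give no names for these identifiers. Other chaperone families, such as HSP90 cofactors and endoplasmic reticulum chaperones, could not be looked up by name and are not analysed here.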

How the data were processed

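Polyadenylated kidney RNA was sequenced from 18 animals. The authors deposited raw counts per gene and library. Builds GRCm38 and mm10 are named, per the submitters' processing notes. Which aligner, counter, annotation and strandedness were used is not given in the sources used here. Groups and replicate numbers came from sample titles, and columns were matched by library name.

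The tests used edgeR 4.0.16 (R 4.3.3): filterByExpr, TMM factors, 1 fit of all 18 libraries with 1 coefficient per group, quasi-likelihood F-test, Benjamini-Hochberg adjustment over 19233 genes, calls at an adjusted p under 0.05. The pipeline was tested on simulated data. SEs came from the F statistics, and a prior count of 2 entered log2 CPM. P-values set a group difference against the spread between animals within groups, estimated with information shared over genes. Counting error is part of that spread. Alternatives were DESeq2 1.42.0, limma 3.58.1 (voom with quality weights), other scalings and filters, the replicate block, summed Hspa1 counts, the control division as a covariate, and libraries left out.

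The members and lists were chosen with earlier results of these data known. All 7 members are named, with the 2 most similar identifiers. Another 13 lists (146 symbols) could not be used: 0 of 55335 identifiers matched the rat gene table (GRCr8). Promoters came from RefSeq by symbol.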

Additional observations from a re-analysis of the deposited data

Results flagged for a closer look

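Of 21 combinations of a chaperone and a group of 6 libraries, 7 held a library whose gap to its nearest neighbour was large against the range of the group. Chance flags about 1 in 20 groups if the values follow a normal distribution, and the members are not independent of each other. The gaps were taken on CPM, not on log2 CPM, and every flagged library stood high. Whether they would be flagged on the log2 scale was not tested. DN library 6 stood high for Hspa1a (34.9 CPM, next 19.3 CPM) and Hsph1 (176 CPM, next 111 CPM). Ctrl library 4 stood high for Hspa1a (64.2 CPM, next 29.7 CPM), Hspa1b (121 CPM, next 49.9 CPM), Hspb1 (19.6 CPM, next 8.62 CPM) and Hsph1 (256 CPM, next 158 CPM). Ctrl library 6 stood high for Dnajb1 (35.9 CPM, next 29.6 CPM).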

How the results depend on the processing

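In Treat versus Ctrl, between 3 and 4 members were called with any 1 library left out and 3 to 5 over all 29 alternatives, against 4. These numbers join both directions, and the summed setting counts the inducible pair once. The 4 of the main fit were all lower. Without Ctrl library 4, 2 were lower and 1 higher, and without Ctrl library 4 and Treat library 1, 4 were lower and 1 higher. In Treat versus DN the number was 0 throughout. In DN versus Ctrl it was 0, but 3 with the control division as a covariate, 1 without Ctrl library 4 and Treat library 1, and 0 to 4 with single libraries left out. Fewer libraries in a fit, or 1 control as the reference, are part of these settings; the cause of the other changes was not tested. With the replicate block the numbers were 0, 0 and 4 in DN versus Ctrl, Treat versus DN and Treat versus Ctrl, and the block changed no call of a member. Same-numbered libraries did not deviate together for DN and Ctrl (r from -0.19 to 0.07) or for Treat and Ctrl (-0.19 to 0.04). For Treat and DN r ran from -0.12 to 0.19, and 2 of 6 Treat libraries had the same-numbered DN library as best match.

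Some directions turned. In DN versus Ctrl the log2 fold change of Hspb1 (0.03) was -0.019 with library totals, -1.07 with the control division and -0.064 to 0.40 with single libraries left out. In Treat versus DN those of Hspa1a and Hspa1b ranged from -0.41 to 0.12 and from -0.57 to 0.063 with single libraries left out. In Treat versus Ctrl that of Hspa8 (-0.01) was 0.088 with library totals, 0.012 with only the 12 libraries compared, 0.047 with limma voom, 0.12 with the control division, 0.042 without Ctrl library 4 and Treat library 1, and -0.078 to 0.058 with single libraries left out. That of Dnajb1 was 0.036 with library totals and that of Hspb1 -0.84 with the control division. Without scaling factors Hspa1a lost its call in Treat versus Ctrl (-0.84, edgeR adjusted p = 0.0627), and with no filter too (-0.93, edgeR adjusted p = 0.0502). Library totals moved the median of all genes from 0.0079 to -0.021 in DN versus Ctrl, from -0.0051 to 0.127 in Treat versus DN and from 0.023 to 0.125 in Treat versus Ctrl. Relative to that median the values that turned with library totals did not turn: 0.022 with TMM factors and 0.0018 with totals for Hspb1 in DN versus Ctrl, -0.035 and -0.037 for Hspa8, and -0.088 and -0.089 for Dnajb1 in Treat versus Ctrl. Depth limits Hspb1 most, with as few as 148 counts in a library, and counting error is part of its spread.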
